A study of Mus musculus with 6 samples.

Results

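The genes described here encode proteins that bind long-chain fatty acids or their CoA esters inside cells, or that help fatty acids enter cells. There were 10 such genes, chosen by symbol and with earlier results of these data known. They were read by 11 probe sets with a single annotated symbol, out of 19938 genes and 35512 probe sets on the array. The fatty acid binding protein genes Fabp1, Fabp2, Fabp4, Fabp5 and Fabp7 made up 5 of the 10 genes. The others were Cd36, the transporter genes Slc27a1, Slc27a2 and Slc27a4, and the acyl-CoA binding protein gene Dbi. All 10 lay above the intensity filter and were tested.

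Liver RNA was measured on 1-colour arrays in 6 female C57BL/6 mice, 1 array per mouse. The knock-in group held 3 mice homozygous for LmnaG609G (replicates 1, 3 and 5), and the wild-type group held 3 mice with both normal Lmna alleles (replicates 2, 4 and 6). Every mouse was 3 months old and had been without food for 6 h, so the comparison is one between fasted livers, and no fed group was analysed here. The allele alters splicing of the lamin A transcript, and mice homozygous for it model Hutchinson-Gilford progeria, a premature ageing syndrome. It is carried in all tissues, and whole liver was taken, so fewer cells of a type and less RNA per cell cannot be told apart in any value below.

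Fatty acids that reach the liver cross the plasma membrane by diffusion and with the help of CD36 and of the fatty acid transport proteins of the SLC27 family, which also couple them to coenzyme A. Small cytosolic fatty acid binding proteins then carry the free acids through the cell, and the acyl-CoA binding protein carries the activated esters to oxidation or to lipid synthesis. Fabp1 is the principal member in hepatocytes, and it is a classical target of PPARalpha, the nuclear receptor that fatty acids activate and that binds direct repeats of AGGTCA with a spacer of 1 base (DR1).

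The arrays carried the label's tissue. Of 9 hepatocyte marker genes (3 at an unadjusted p below 0.05), 8 showed no called difference, and Asgr1, named after its values were seen, fell (log2 change -0.58 ± 0.15, SE; limma adjusted p = 0.0242), a call that held in 1 of the 6 fits with a mouse left out. Over all 26634 tested probe sets, 10059 had an unadjusted p below 0.05. At a limma adjusted p below 0.05, 10.9% were lower and 14.9% higher in knock-in liver. Marker counts here and below are to be read beside these. Albumin (Alb) read 16618 to 18818 in knock-in and 16607 to 17889 in wild-type liver. The summed intensity of the 9 markers was 97480 to 107500 in knock-in against 104867 to 110949 in wild-type liver. Array medians lay between 97 and 104 intensity units, with an exact two-sided permutation p of 0.2 between the genotypes, where 3 mice against 3 allow no p below 0.1. The 6 arrays, 3 per genotype, limit the precision. Knock-in replicate 3 stood nearer to the wild-type arrays (Pearson r of 0.976 to 0.980 across 35512 probe sets, which are not independent) than knock-in replicates 1 and 5 did (0.960 to 0.969). The estimates of Fabp1, Fabp4, Fabp7, Cd36, Slc27a2, Slc27a4 and Dbi are given with and without this mouse. Lmna itself did not differ by a called amount (log2 change -0.17 ± 0.13, SE, n = 3 per genotype; limma adjusted p = 0.398), and its probe set does not separate splice forms.

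The regions upstream of 3 members are shown because the text returns to them beside the values of Fabp1 and Fabp2, the 2 members that fell furthest, and of Cd36, the only other member whose region held a DR1 match under the rule given here. They are the 250 bases before the transcription start listed by RefSeq on GRCm38.p6, read 5′ to 3′ on the gene's own strand, and capitals mark the match. Fabp1 lies at chr6:71199629-71199878 on the plus strand, Fabp2 at chr3:122894822-122895071 on the plus strand and Cd36 at chr5:17835897-17836146 on the minus strand. The Cd36 start listed there lies inside the RefSeq span of the gene, chr5:17781690-17888959.
Fabp1: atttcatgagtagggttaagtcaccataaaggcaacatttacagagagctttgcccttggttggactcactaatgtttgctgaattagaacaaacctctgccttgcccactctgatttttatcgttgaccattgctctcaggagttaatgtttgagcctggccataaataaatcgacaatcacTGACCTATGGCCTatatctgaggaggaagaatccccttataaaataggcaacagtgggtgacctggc
Fabp2: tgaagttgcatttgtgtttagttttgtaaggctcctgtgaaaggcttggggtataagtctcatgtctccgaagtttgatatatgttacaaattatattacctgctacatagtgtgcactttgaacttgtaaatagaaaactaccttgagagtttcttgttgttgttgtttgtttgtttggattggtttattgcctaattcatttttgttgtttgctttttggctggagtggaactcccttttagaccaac
Cd36: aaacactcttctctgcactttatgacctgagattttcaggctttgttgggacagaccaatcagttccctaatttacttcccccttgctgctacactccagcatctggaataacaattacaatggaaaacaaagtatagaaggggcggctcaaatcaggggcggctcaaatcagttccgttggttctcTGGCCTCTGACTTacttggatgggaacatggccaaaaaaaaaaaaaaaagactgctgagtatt

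Both strands were searched for AGGTCANAGGTCA, which has 12 fixed letters, with up to 2 mismatches. The Fabp1 match differed at 1 letter, lay on the strand opposite to the gene and spanned bases 67 to 55 upstream of the start. The Cd36 match differed at 2 letters, lay on the opposite strand and spanned bases 63 to 51 upstream. The Fabp2 region held no match, its best stretch differing at 3 letters. Of 32851 upstream regions of the same length in the RefSeq table, 0.484% held a match with at most 1 mismatch and 3.24% with at most 2. Regions were listed for 8 of the 10 members, in 11 entries, since Dbi had 2 and Slc27a1 had 3 listed starts. No region was listed for Fabp4 or Fabp5, so neither gene was searched. A match is a description of the letters and not a measured binding site.

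The comparison asked which of these genes differ between knock-in and wild-type liver. Fabp1, Fabp2, Fabp5, Dbi and Slc27a1 fell, Fabp4 rose, and Fabp7, Cd36, Slc27a2 and Slc27a4 did not pass the test. A gene was called when limma's Benjamini-Hochberg adjusted p over all 26634 tested probe sets was below 0.05. By that rule 5 of the 10 members fell, where 10.9% of all tested probe sets were called lower. In the other direction 1 member rose, where 14.9% were called higher. In either direction 25.9% of tested probe sets were called, against 6 of 10 members. The genotypes did not overlap for the same 6 members, and over all tested probe sets 41.1% did not overlap, 17.2% lying wholly lower and 23.9% wholly higher in knock-in liver. The median log2 change of the members was -0.52, beside 0.03 over all tested probe sets. The members were chosen with earlier results of these data known, so these counts and medians describe them and are no test of enrichment. With each array centred on its median, the calls over all probe sets were 3119 higher and 3424 lower, in place of 3974 and 2914, and again 5 members fell and 1 rose.

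**Figure D1:**
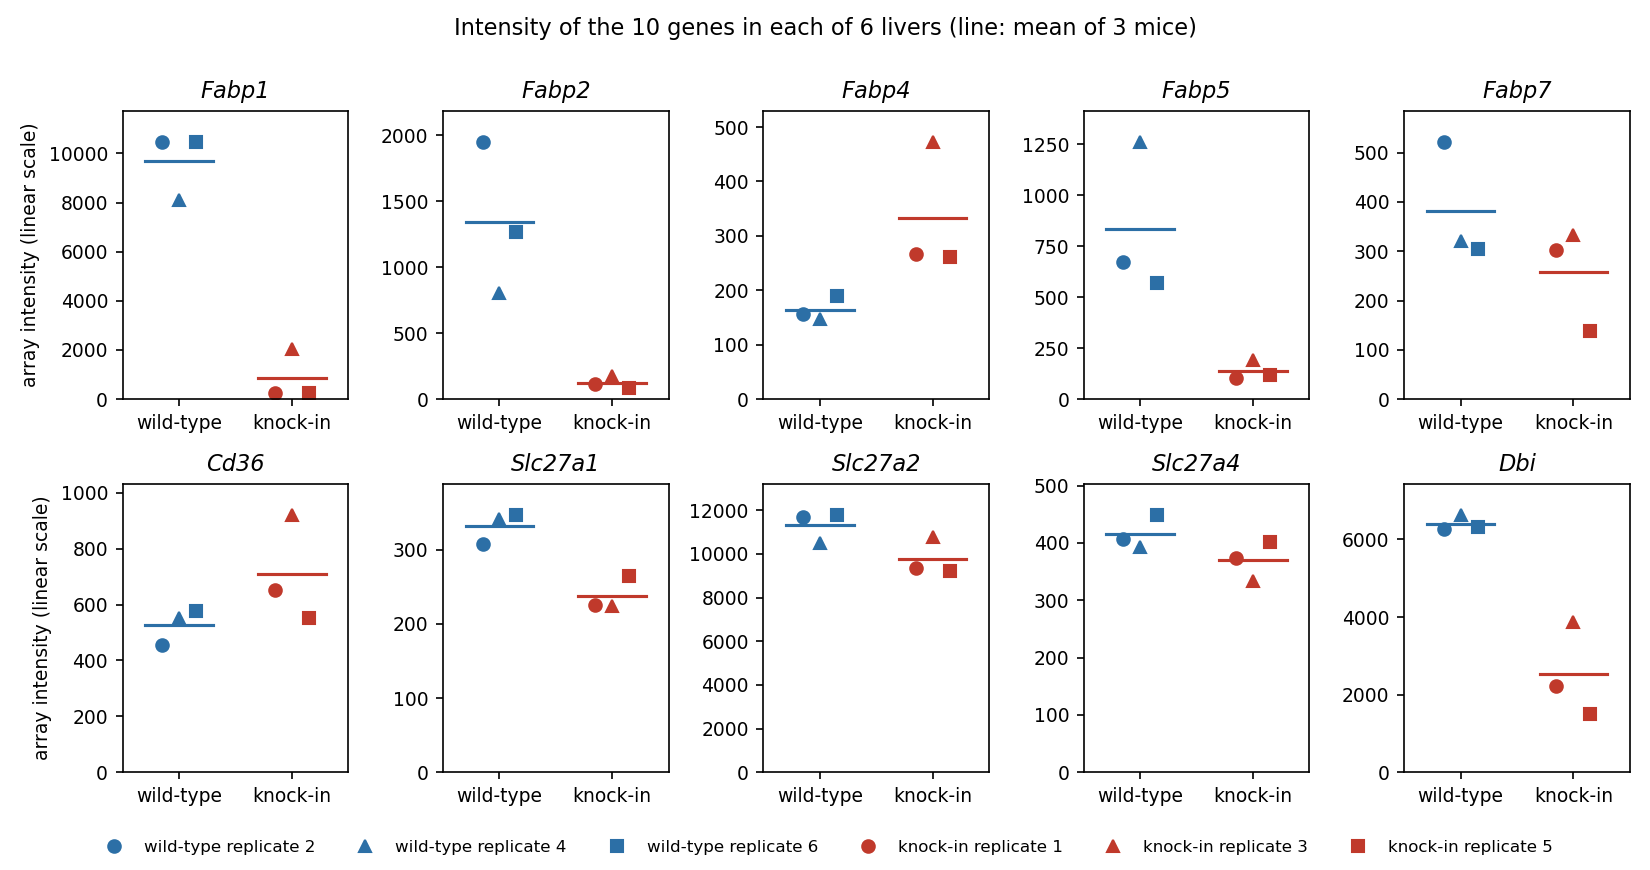
Array intensity on a linear scale (vertical axes, each from 0) of the 10 genes in 3 wild-type (blue) and 3 knock-in livers (red), with 1 point per mouse, the symbol giving the replicate and the line the mean of 3 mice. The genotypes do not overlap for Fabp1, Fabp2, Fabp4, Fabp5, Slc27a1 and Dbi, and overlap for the other 4, and knock-in replicate 3 (triangle) is the highest knock-in mouse for 8 of the 10.

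**Figure D2:**
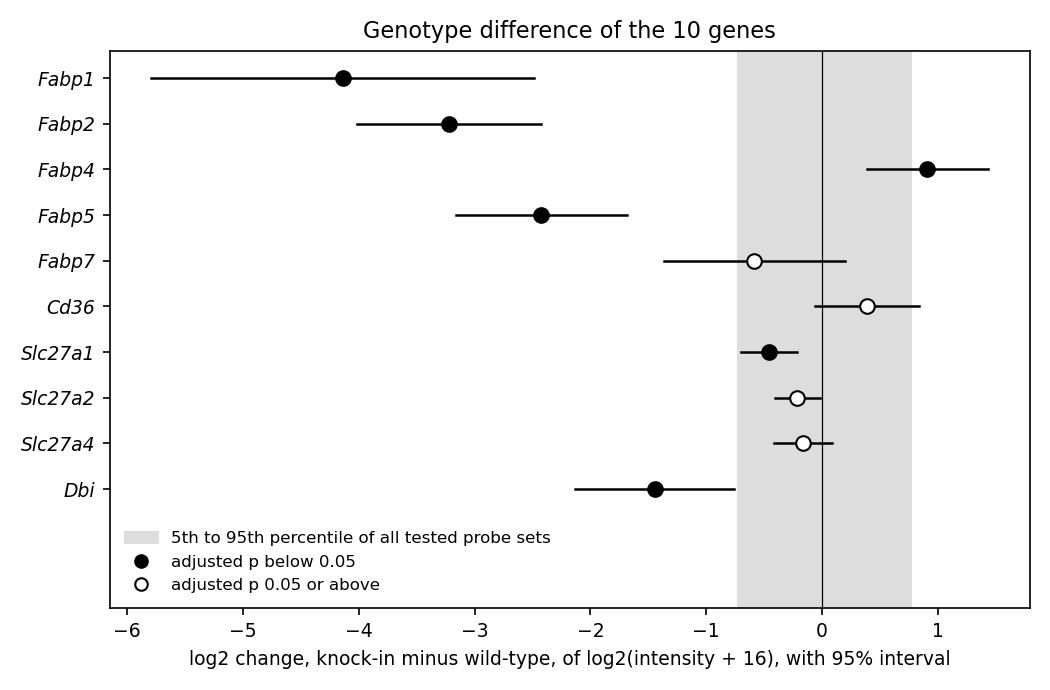
Log2 change, knock-in minus wild-type, of log2(intensity + 16) for the 10 genes, with 95% intervals and with filled points where limma's adjusted p was below 0.05. Fabp1, Fabp2, Fabp5, Dbi and Fabp4 have estimates outside the grey band from -0.72 to 0.77 that holds the 5th to 95th percentile of all tested probe sets, and that of Slc27a1 (-0.46) lies inside it.

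Among the binding proteins, Fabp1 had the largest difference. Its probe set (10538965) read 263, 2043 and 269 in knock-in replicates 1, 3 and 5, and 10477, 8109 and 10472 in wild-type replicates 2, 4 and 6. The genotypes were far apart, and knock-in replicate 3 kept more signal than the other knock-in mice. The log2 change was -4.14 ± 0.71 (SE, n = 3 per genotype; 17.6-fold lower; limma adjusted p = 0.00568; 95% interval -5.79 to -2.49). All fold changes are on the scale of log2(intensity + 16) and understate the change of dim genes. Only 6 of the 26634 tested probe sets had a lower log2 change. Without knock-in replicate 3 the estimate was -5.09 (34.2-fold lower; limma adjusted p = 1.1e-05). Relative to the wild-type mean, knock-in replicate 3 lay at -2.23 on the log2 scale and replicates 1 and 5 at -5.11 and -5.08. The Fabp1 region printed above held the closer of the 2 DR1 matches, and the part of that match in the Fabp1 difference was not tested.

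Fabp2, the intestinal fatty acid binding protein gene, was also lower in every knock-in mouse. It read 114, 177 and 86 in knock-in liver and 1952, 806 and 1265 in wild-type liver (probe set 10495820, same replicate order). The wild-type mice spread over 1.26 on the log2 scale, and all of them lay above the highest knock-in mouse. This gave a log2 change of -3.22 ± 0.34 (SE; 9.32-fold lower; limma adjusted p = 0.00111). Leaving out 1 mouse at a time gave estimates from -3.54 to -2.91, each with an adjusted p below the threshold. Its upstream region, printed above, held no DR1 match. Markers of intestinal epithelium were measured beside it. Of 9 with a probe set 8 were tested, and 0 were called by limma (2 at an unadjusted p below 0.05). Their summed intensity was 4607 to 5910 in knock-in and 5852 to 9529 in wild-type liver. Most of that sum was Apoa4, an apolipoprotein gene that mouse liver also expresses, and without it the sums were 536 to 620 and 547 to 635. The sucrase-isomaltase gene Sis, specific to that epithelium, read 17 to 18 in both genotypes, under the filter level of 38.4.

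Fabp5, the epidermal fatty acid binding protein gene, was read by 2 probe sets. The brighter (10585699) gave 106, 192 and 116 in knock-in and 674, 1262 and 570 in wild-type liver. The other (10490838) gave 92, 135 and 87 against 461, 852 and 398. Both put the same mice highest, knock-in replicate 3 and wild-type replicate 4, with no overlap between the genotypes. Their log2 changes were -2.42 ± 0.32 and -2.22 ± 0.28 (SE; limma adjusted p = 0.00217 and 0.00196), 5.36-fold and 4.67-fold lower. The probe sets share a gene and are no replicates of each other. Probe sequences were not used here, so cross-hybridisation with close copies of the gene was not tested. Macrophages also express Fabp5, and markers of macrophages and Kupffer cells were measured on the same arrays. Of 10, Adgre1 fell (log2 change -1.06 ± 0.32, SE; limma adjusted p = 0.0449), 0 rose and 9 did not pass, with a median log2 change of -0.37. At an unadjusted p below 0.05 there were 5 of the 10, beside 10059 of all 26634 tested probe sets. Besides Adgre1 the markers were Lyz2 (log2 change -1.08), Cd5l (-1.02) and Clec4f (-0.75), each with no overlap between the genotypes, and Marco (0.48), with overlap. These 4 were named after their values were seen. Adgre1 kept its call in only 2 of the 6 fits with a mouse left out, the fit that left out knock-in replicate 3 and the fit that left out wild-type replicate 6. The summed intensity of the 10 macrophage markers was 3600 to 6530 in knock-in and 5646 to 9972 in wild-type liver, with overlap, and their part in the Fabp5 difference was not tested.

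Fabp4, the binding protein of adipocytes, macrophages and capillary endothelium, was the member that rose. It read 266, 473 and 262 in knock-in and 156, 147 and 190 in wild-type liver (probe set 10497265). Every knock-in mouse lay above every wild-type mouse, and knock-in replicate 3 was the highest. The log2 change was 0.91 ± 0.22 (SE; 1.88-fold higher; limma adjusted p = 0.0228). The call was lost without wild-type replicate 4 (log2 change 0.84, adjusted p = 0.0750) or wild-type replicate 2 (0.88, adjusted p = 0.0713). Without knock-in replicate 3 it was 0.64 (limma adjusted p = 0.0100).

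Adipocyte and endothelial markers stood beside Fabp4 as follows. The adipocyte genes Adipoq and Cidea were under the filter level, with Adipoq at 36 to 38 in both genotypes. Of 6 tested adipocyte markers only Car3 was called, and it fell (2 at an unadjusted p below 0.05). Car3 is also a hepatocyte gene, and it made up most of the list's summed intensity, which was 1340 to 3275 in knock-in and 12352 to 13121 in wild-type liver. Without Car3 the sums were 1042 to 1189 and 929 to 1294. Of 10 endothelial markers, Kdr, Stab2 and Clec4g fell (log2 changes of -0.49 ± 0.11, -0.37 ± 0.09 and -0.72 ± 0.21, SE), Lyve1 rose (1.43 ± 0.35), and 6 did not pass (5 of the 10 at an unadjusted p below 0.05). With a mouse left out the call of Kdr was lost in 3 of 6 fits, that of Stab2 in 3, that of Clec4g in 5 (all but the fit without knock-in replicate 3), and that of Lyve1 in 1 (without knock-in replicate 5). Kdr and Stab2 were lost without knock-in replicate 1, wild-type replicate 2 or wild-type replicate 6. The summed intensity of the 10 endothelial markers was 6574 to 8992 in knock-in and 8232 to 8652 in wild-type liver. The part of these cells in the Fabp4 difference was not tested.

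Fabp7, the brain-type binding protein gene, did not pass. It read 303, 333 and 138 in knock-in and 522, 320 and 304 in wild-type liver (probe set 10363224). The genotypes overlapped, with knock-in replicate 5 alone at the bottom and wild-type replicate 2 alone at the top. Its log2 change was -0.58 ± 0.33 (SE; limma adjusted p = 0.253; 95% interval -1.36 to 0.20), so the interval holds both no difference and a fall of more than 2-fold. The estimate was -0.21 without knock-in replicate 5 (limma adjusted p = 0.598) and -0.35 without wild-type replicate 2 (limma adjusted p = 0.563). Without knock-in replicate 3 it was -0.80 (limma adjusted p = 0.132). Across the fits with 1 mouse left out it ran from -0.80 to -0.21 and was never called. Of 5 neural and glial markers with a probe set 3 were tested and 0 were called by limma (1 at an unadjusted p below 0.05). Gfap, the astrocyte filament gene, read 46 to 50 on the 6 arrays, and the markers summed to 235 to 266 in knock-in and 252 to 282 in wild-type liver.

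The membrane and uptake genes had log2 changes between -0.46 and 0.39, and Slc27a1 was the only one of the 4 that was called. Cd36, the scavenger receptor and fatty acid translocase gene, read 652, 921 and 550 in knock-in and 455, 552 and 576 in wild-type liver (probe set 10528207). Knock-in replicate 5 lay among the wild-type mice. Over all mice its log2 change was 0.39 ± 0.19 (SE; limma adjusted p = 0.189; 95% interval -0.06 to 0.84). It was 0.18 without knock-in replicate 3 and 0.55 without knock-in replicate 5 (limma adjusted p = 0.0805). These were the lowest and highest estimates with 1 mouse left out, and none was called. The Cd36 upstream region, printed above, held the other DR1 match.

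Slc27a1, which encodes fatty acid transport protein 1, known from muscle and fat, fell by a small amount. It read 225, 224 and 264 in knock-in and 308, 341 and 347 in wild-type liver (probe set 10572647), with no overlap. The log2 change was -0.46 ± 0.10 (SE; 1.37-fold lower; limma adjusted p = 0.0169). It no longer passed when knock-in replicate 1 (-0.42, limma adjusted p = 0.0662), wild-type replicate 6 (-0.43, adjusted p = 0.0681) or wild-type replicate 4 (-0.44, adjusted p = 0.0515) was left out. Of 6 striated muscle markers 0 were called by limma (0 at an unadjusted p below 0.05), and their sums were 612 to 663 in knock-in liver, all above the wild-type ones, the lowest of which was 592.

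Slc27a2, the gene of a transport protein of the family that is also a very long-chain acyl-CoA synthetase, did not pass. It read 9351, 10778 and 9211 in knock-in and 11686, 10507 and 11792 in wild-type liver (probe set 10475653). Knock-in replicate 3 lay above wild-type replicate 4, so the genotypes overlapped. Its log2 change, -0.21 ± 0.08 (SE; 1.16-fold lower; limma adjusted p = 0.105; 95% interval -0.41 to -0.02), did not pass once adjusted over all probe sets. Without knock-in replicate 3 it was -0.29 and was called (limma adjusted p = 0.0276).

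Slc27a4, the widely expressed transport protein 4 gene, read 374, 333 and 401 in knock-in and 406, 393 and 449 in wild-type liver (probe set 10470751). The ranges overlapped, and here knock-in replicate 3 was the lowest mouse. Its estimate was a log2 change of -0.17 ± 0.11 (SE; limma adjusted p = 0.314; 95% interval -0.42 to 0.09). Without knock-in replicate 3 it was -0.097 (limma adjusted p = 0.575).

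Dbi, the acyl-CoA binding protein gene, fell. It read 2211, 3863 and 1507 in knock-in and 6262, 6635 and 6328 in wild-type liver (probe set 10357242). The wild-type mice lay within 0.08 of each other on the log2 scale, and the knock-in mice spread over 1.35. The log2 change was -1.44 ± 0.29 (SE; 2.72-fold lower; limma adjusted p = 0.0111), and -1.80 without knock-in replicate 3 (3.49-fold lower). Leaving out 1 mouse at a time kept the adjusted p at or below 0.0462.

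The knock-in mice differed among themselves in a recurring order. For 8 of the 10 members the knock-in log2 range was wider than the wild-type one. Knock-in replicate 3 was the highest knock-in mouse for 8 members and the lowest for Slc27a1 and Slc27a4. Knock-in replicate 5 was the lowest for 6. For Fabp1, Fabp2, Fabp5 and Dbi, which fell, knock-in replicate 3 was therefore the mouse nearest to wild-type, and for Fabp4 it was the mouse farthest from it.

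The genes whose profile over the 6 mice was most like that of Fabp1 were Car3, Sult2a8, Ces1f, Mup3 and Serpina6. Likeness was the root mean square difference of log2 values, each taken from the gene's own wild-type mean, over 17642 probe sets with a single symbol. It was 0.16 for Car3, a carbonic anhydrase gene, and 0.44 for both the sulfotransferase gene Sult2a8 and the carboxylesterase gene Ces1f. It was 0.49 for the major urinary protein gene Mup3 and 0.60 for Serpina6, which encodes corticosteroid-binding globulin. Car3 read 298, 2086 and 340 in knock-in and 12192, 11431 and 11155 in wild-type liver, so its knock-in mice stood in the same order and at nearly the same distance as those of Fabp1. Sult2a8, Ces1f and Mup3 belong to families of close paralogs that their probes may not separate.

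**Figure D3:**
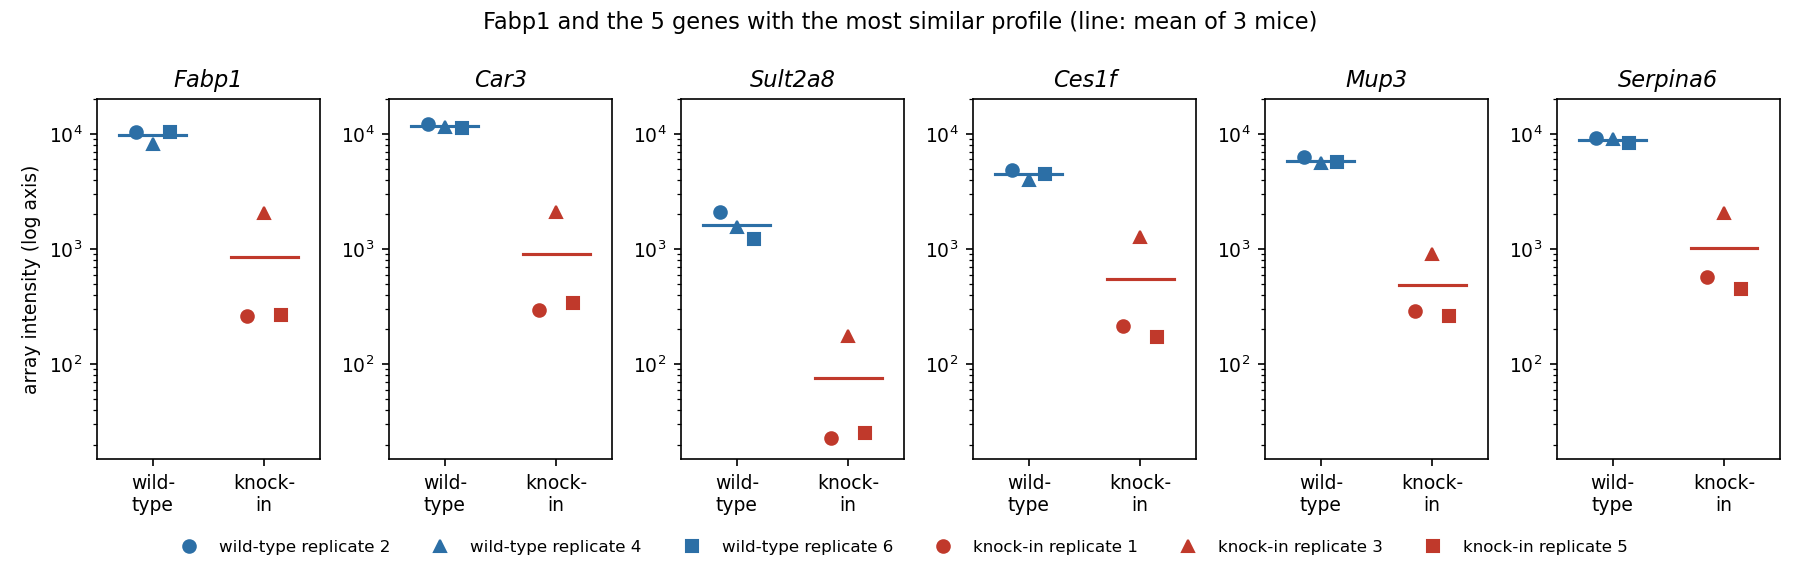
Array intensity on a log axis of Fabp1 and its 5 nearest genes in 3 wild-type (blue) and 3 knock-in livers (red), with 1 point per mouse and a line at the mean of 3 mice. In all 6 panels knock-in replicate 3 (triangle) lies above the other knock-in mice, at 2043 for Fabp1 and 2086 for Car3, and below every wild-type mouse.

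Other genes of fatty acid handling were read from lists of related genes, also chosen with earlier results of these data known. Their counts stand beside 10.9% of all tested probe sets called lower and 14.9% called higher. Among other lipid-binding proteins of the same fold, 5 of 9 with a probe set passed the filter and 0 were called by limma (0 at an unadjusted p below 0.05), with a median log2 change of 0.02. They included Fabp3, the heart-type gene, at 53 to 56 in all 6 mice. Of 16 other genes of uptake and of acyl-CoA synthesis, 6 fell, 2 rose and 8 did not pass, with a median of -0.12. The medium-chain synthetase genes Acsm5 and Acsm1 fell by 1.69 ± 0.18 and 1.64 ± 0.24 on the log2 scale (SE; limma adjusted p = 0.00111 and 0.00341). Got2, a mitochondrial aminotransferase also described as a fatty acid binding protein of the plasma membrane, fell by 0.47 ± 0.10 (limma adjusted p = 0.0135). That call was lost without wild-type replicate 6 (adjusted p = 0.0516) or 2 (adjusted p = 0.0508). Acsl4, a synthetase that prefers arachidonate, rose by 0.91 ± 0.11 (1.88-fold; limma adjusted p = 0.00165). Leaving out knock-in replicate 1, wild-type replicate 2 or wild-type replicate 6 reduced the 6 that fell to 3. Leaving out knock-in replicate 5 or wild-type replicate 6 reduced the 2 that rose to 1.

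Of 5 tested genes with an acyl-CoA binding domain besides Dbi, Acbd5 fell by 0.78 ± 0.18 on the log2 scale (SE; limma adjusted p = 0.0162) and 4 did not pass. Acbd5 encodes a peroxisomal membrane protein. It no longer passed when knock-in replicate 1 (limma adjusted p = 0.0540) or wild-type replicate 2 (adjusted p = 0.0587) was left out. Without knock-in replicate 3, 2 of these genes fell.

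Of 17 nuclear receptors and other regulators, 5 fell, 3 rose and 9 did not pass, with a median log2 change of -0.29. Over all tested probe sets 10.9% were called lower and 14.9% higher. Ppara, the gene of a receptor that binds DR1 elements, read 1245, 1543 and 881 in knock-in and 3709, 3443 and 3509 in wild-type liver. Its log2 change was -1.56 ± 0.19 (SE; limma adjusted p = 0.00165). The part of Ppara in the differences of the members was not tested. Nr1i3, the constitutive androstane receptor gene, fell by 1.52 ± 0.09 (limma adjusted p = 0.000175). The coactivator gene Ppargc1a rose by 2.30 ± 0.18 (limma adjusted p = 0.000454). Hnf4a, a hepatocyte transcription factor gene whose product also binds DR1 elements, rose by 0.84 ± 0.09 (limma adjusted p = 0.00108). Cebpa, Nr1h3 and Creb3l3 were the others that fell and Ppargc1b the other that rose, named after their values were seen.

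Of 23 tested target genes of PPARalpha, 17 fell, 1 rose and 5 did not pass, with a median log2 change of -1.44. The list includes Creb3l3, counted among the regulators too. Acot3, an acyl-CoA thioesterase gene, read 252, 287 and 124 in knock-in and 1698, 1652 and 1670 in wild-type liver, a log2 change of -2.91 ± 0.27 (SE; 7.51-fold lower; limma adjusted p = 0.00068). The lipid droplet coat gene Plin2 fell 8.90-fold, the monoglyceride lipase gene Mgll 5.02-fold and the aldehyde dehydrogenase gene Aldh3a2 3.18-fold. The gene that rose was Pdk4 (3.18-fold), a kinase that restrains pyruvate oxidation, named after its values were seen. Without knock-in replicate 1, 11 of the 23 fell.

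**Figure D4:**
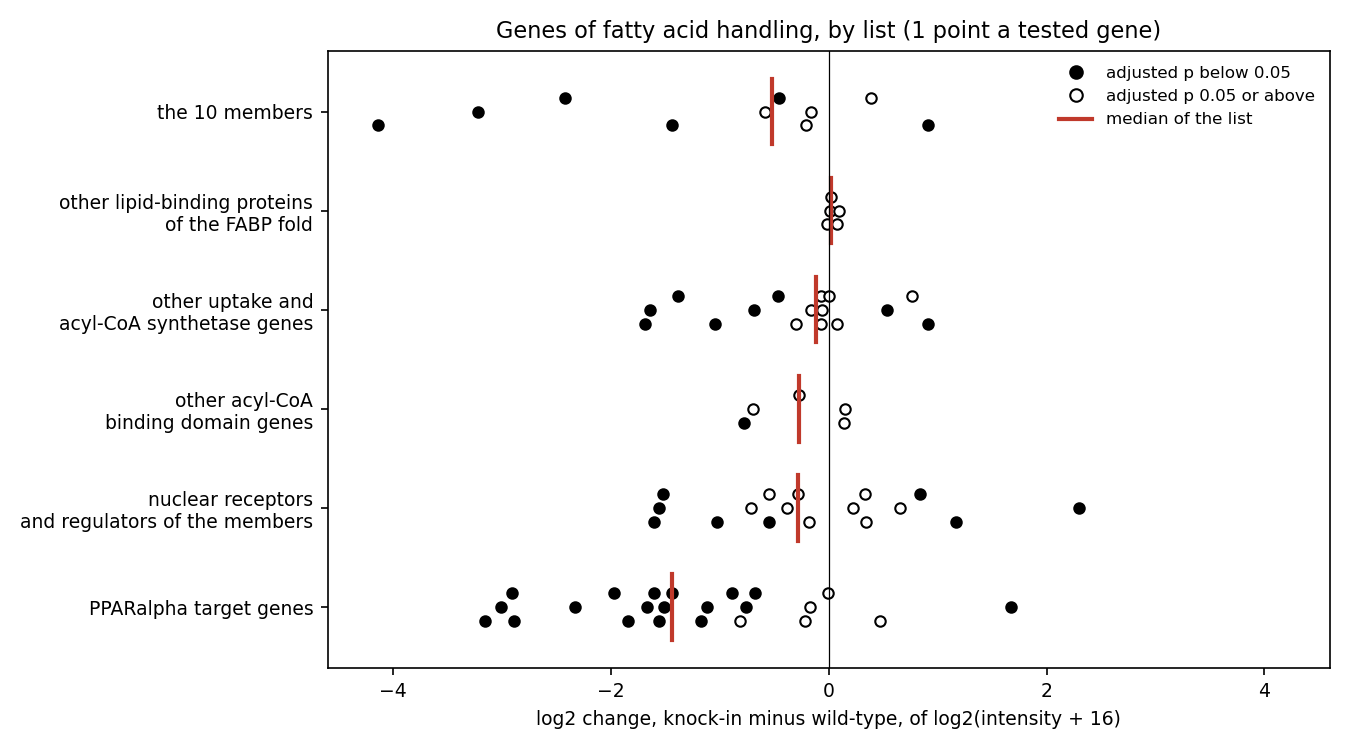
Log2 change, knock-in minus wild-type, of log2(intensity + 16) for each tested gene of the members and of 5 lists of related genes, with filled points where limma's adjusted p was below 0.05 and a red line at each median. The medians run from 0.02 for other lipid-binding proteins to -1.44 for target genes of PPARalpha, with the members at -0.52.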

How the data were processed

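The authors deposited a table of linear intensity values, rounded to whole numbers, with a row for each probe set and a column for each array. Their summarisation, background correction and normalization are steps not given in the sources used here. Per the labels' protocols, RNA from RNeasy columns was copied to cDNA and labelled with biotin. Columns were matched to mice by sample identifier, and no 2 arrays were identical. Gene names come from the array's annotation, which may be outdated, and all 10 member symbols equal the RefSeq symbol of their gene identifier.

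Values were taken as log2(intensity + 16). A filter removed probe sets with a mean log2 value below the 25th percentile, and the others were fitted with limma 3.58.1 in R 4.3.3 (lmFit, eBayes with trend), as the knock-in difference from wild-type, and p-values were adjusted by Benjamini-Hochberg. SE are moderated standard errors. A gene with several probe sets was represented by the brightest. No set test was run. Replicates are separate animals by their labels.

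The members and lists were chosen with earlier results of these data known. Named genes are the members, up to 4 called genes per related list by smallest p, and the 5 genes nearest to Fabp1. Marker sums without Car3, Apoa4 or Dcn were added after seeing the data. Alternatives were pseudocounts of 1 and 64, no filter, the 50th percentile, quantile normalization, median centring, eBayes without trend or with a robust prior, array weights, the mean of a gene's probe sets, and each mouse left out. Sequences are from RefSeq (GRCm38.p6). No coordinates of probe sets were used. Figures were drawn with matplotlib 3.10.9.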

Additional observations from a re-analysis of the deposited data

How the results depend on the processing

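Among the alternatives that kept all 6 mice, the number of members that fell was 5 or 6 and the number that rose was 1. With 1 mouse left out at a time, 4 to 6 members fell and 0 to 1 rose, the latter being 0 without wild-type replicate 2 or 4. No log2 change of a named gene changed sign under any alternative run, and calls of single genes were lost 34 times and gained 2 times. With all 6 mice kept, Slc27a2 gained its call with array weights (-0.27, limma adjusted p = 0.0256), Clec4g lost its call with no filter, and Adgre1 with no filter, a robust prior or array weights. No call of a member was lost in these fits. Leaving out 1 mouse gave 4236 to 7725 called probe sets, 1814 to 3454 lower and 2422 to 4271 higher. In the same fits 3 to 7 other uptake and synthetase genes fell and 1 to 3 rose, 0 to 2 other acyl-CoA binding domain genes fell, and 11 to 18 PPARalpha target genes fell. The acyl-CoA binding domain genes that fell numbered 2 with the filter at the 50th percentile, quantile normalization or median-centred arrays, and 3 with array weights. With the filter at the 50th percentile 5 regulators rose. The cause of these differences was not tested. Signal over background limits dim probe sets, and detection calls were not used here. No paired analysis was possible because the genotypes share no replicate number.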

Other observations

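Markers of cell types not set beside a member above were read on the same arrays. Of 6 stellate cell markers with a probe set, Lrat, which esterifies retinol, and Ngfr fell by 1.16 ± 0.21 and 0.42 ± 0.09 on the log2 scale (SE). Dcn, a matrix proteoglycan gene, rose by 0.49 ± 0.09, and 3 markers did not pass. Their summed intensity was 7409 to 8786 in knock-in and 6522 to 7438 in wild-type liver. Without Dcn it was 1431 to 2050 and 2294 to 2547. Of 4 tested cholangiocyte markers 0 were called by limma (0 at an unadjusted p below 0.05), and the 5 with a probe set summed to 386 to 411 in knock-in and 385 to 411 in wild-type liver.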
